A study of Mus musculus with 12 samples.

Results

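The genes described here are 10 components of the NF-κB system, namely 3 that encode subunits of the transcription factor (Nfkb1, Nfkb2 and Rel), 4 that encode IκB family proteins (Nfkbia, Nfkbiz, Nfkbid and Bcl3) and 3 that encode the ubiquitin-editing enzyme A20 and partners of A20 (Tnfaip3, Tnip1 and Tnip3). They were taken by gene name from both deposited count tables, and are 10 of the 52636 genes in each table. RNA was sequenced from neutrophils enriched with a kit from the bone marrow of C57BL/6 J mice aged 8 to 12 weeks, and from monocytes isolated with a kit from the same tissue and cultured for 3 days with M-CSF at 10 ng/ml, a growth factor that drives monocytes towards macrophages. The latter carry the label monocytes/macrophages and are called macrophages below. CGRP, a neuropeptide released by sensory neurons, was given to each cell type at 1 nM for 4 h, and control cells of each type received saline (PBS) in its place, which makes 4 groups of 3 libraries and 12 libraries in all. The question was how CGRP changes the transcriptome of these cells. No source used here states whether the 3 libraries of a group came from separate mice, so that the p-values measure the spread between these libraries, which may be technical.

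NF-κB is a family of dimeric transcription factors that drive inflammatory and survival genes in myeloid cells. In the canonical pathway, receptors for microbial products, interleukin-1 or TNF activate the IκB kinase complex, IκBα is degraded and dimers containing p50, RelA or c-Rel enter the nucleus, whereas the alternative pathway processes p100, the product of Nfkb2, to p52. The pathway induces several of its own brakes, among them IκBα and A20, and the nuclear IκB proteins Bcl-3, IκBζ and IκBNS bind p50 or p52 on DNA and alter transcription of particular target genes.

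The sequences before the start sites are shown because the κB element is the site through which several of these genes are regulated by the pathway they belong to. RefSeq promoter entries on GRCm38.p6 were found for 8 of the 10 genes (not for Nfkb1 and Nfkbiz), with 13 start sites among them. The κB decamer consensus was searched on both strands of the 250 bases before each start, and so were the cAMP response element TGACGTCA and TGACG, which makes up part of it. A κB match was found for 7 of the 8 genes (Nfkb2, Rel, Nfkbia, Nfkbid, Tnfaip3, Tnip1 and Tnip3, not Bcl3) and in 9 of the 13 windows. Over all mouse promoter entries, 8.23% of 27025 genes and 7.25% of 32851 windows of this length held a match. TGACGTCA was found for 1 of the 8 genes (Nfkbid) and in 1 of the 13 windows, against 1.77% of all genes and 1.55% of all windows. TGACG was found for 4 of the 8 genes (Nfkb2, Rel, Nfkbid and Tnfaip3) and in 5 of the 13 windows, against 19.8% and 17.8%. The Tnip3 window is given whole at chr6:65590148-65590397 on the plus strand, since Tnip3 is the gene of the 10 whose CGRP effect differed between the cell types by the test, and its κB match, in capitals, begins 54 bases before the RefSeq start. This start lies inside the longer GENCODE span of the gene, and the window holds no annotated exon.
Tnip3: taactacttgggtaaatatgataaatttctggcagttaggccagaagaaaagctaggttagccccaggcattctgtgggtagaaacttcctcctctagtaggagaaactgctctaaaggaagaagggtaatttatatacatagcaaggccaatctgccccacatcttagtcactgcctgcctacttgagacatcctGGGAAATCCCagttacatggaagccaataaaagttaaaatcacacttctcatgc
The windows of 30 bases below each show 1 chosen κB match, in capitals, of the subunit genes that rose with CGRP in macrophages, of Tnfaip3 and of Nfkbid. Further matches that are not shown begin 11 bases before the same start of Nfkb2 and before its other starts, 125 bases before that of Tnfaip3 and 181 bases before that of Nfkbid. In the Nfkb2 and Rel windows, a match on the opposite strand also overlaps the one shown and runs 1 base past the capitals. The Nfkb2 match lies within an annotated GENCODE exon, since all 250 bases of its window are exonic (Nfkb2 and AC114539.1), whereas the matches shown for Rel, Tnfaip3 and Nfkbid lie in none. They read 5′ to 3′ in the direction of the gene, at chr19:46304688-46304717 (plus strand) for Nfkb2, chr11:23771042-23771071 (minus strand) for Rel, chr10:19015411-19015440 (minus strand) for Tnfaip3 and chr7:30422170-30422199 (plus strand) for Nfkbid.
Nfkb2: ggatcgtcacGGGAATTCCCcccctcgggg
Rel: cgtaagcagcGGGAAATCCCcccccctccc
Tnfaip3: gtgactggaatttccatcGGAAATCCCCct
Nfkbid: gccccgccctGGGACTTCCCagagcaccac
TGACGTCA, in capitals, begins 51 bases before the same Nfkbid start, at chr7:30422344-30422373.
Nfkbid: cgttagcgccgTGACGTCAgcgcgcggcgt
A match describes these letters only, and binding was not measured in this series.

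Libraries held between 2719556 and 3631989 counts in PBS neutrophils, 2196558 and 3270388 in CGRP neutrophils, 2536415 and 3477069 in PBS macrophages, and 2002559 and 3259073 in CGRP macrophages. Levels are given as CPM, a gene's counts relative to the library's total and scaled by TMM over the 12 libraries. A floor of 3 counts equals 0.826 to 1.498 CPM before this scaling. Priming with oligo-dT places the reads of a gene near its 3′ end. The defining markers of each labelled cell type were present. The summed level of 10 neutrophil markers was between 155338 and 233651 CPM in the 6 neutrophil libraries and between 299.9 and 441 CPM in the 6 macrophage libraries, and that of 10 monocyte and macrophage markers was between 637 and 765 CPM in neutrophils and between 11004 and 13511 CPM in macrophages. Neutrophil libraries also held erythroid transcripts (7 markers summing to between 5774 and 7381 CPM, led by Hbb-bs), whereas macrophage libraries held between 19.5 and 27.8 CPM of them. Markers of myeloid progenitors (3095 to 3936 CPM), of mast cells and basophils (954 to 1171 CPM) and of eosinophils (534 to 663 CPM) were present in neutrophil libraries too, against at most 10.5, 17.7 and 6.56 CPM in macrophage libraries. The part of these cells in the neutrophil values was not tested. For a population of cells, fewer cells that express a gene and less RNA per cell cannot be told apart.

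At rest, the cell types differed in 7 of the 10 genes. Tnip3, which encodes an A20-binding inhibitor of NF-κB, was higher in PBS macrophages than in PBS neutrophils, and Nfkbia, Nfkbiz, Rel, Nfkb1, Nfkbid and Tnip1 were lower. Across all 10694 genes tested, 32.5% were higher in macrophages and 35.4% were lower, so that differences of this kind were common. Tnip3 stood at 6.87, 8.56 and 11.1 CPM in the PBS neutrophil libraries and at 116, 147 and 97.8 CPM in the PBS macrophage libraries. This was 13.6-fold on average, or 3.76 on the log2 scale (SE 0.28, adjusted p = 4.48e-11 by limma-voom over the 12 libraries). The groups did not overlap, and each macrophage library was far above each neutrophil library.

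Nfkbia, which encodes the inhibitor IκBα, had the largest negative difference of the 10 genes. Its level was 451, 477 and 480.3 CPM in PBS neutrophils and 134, 127 and 145 CPM in PBS macrophages, a log2 difference of -1.80 (SE 0.11, adjusted p = 1.24e-12). Nfkbiz, which encodes the nuclear protein IκBζ, was at 27.8, 26.9 and 22.6 CPM in PBS neutrophils and at 8.29, 8.96 and 7.52 CPM in PBS macrophages, a log2 difference of -1.63 (SE 0.22, adjusted p = 7.23e-07). Smaller differences were found for Rel (-0.92, SE 0.17), Nfkb1 (-0.78, SE 0.15), Nfkbid (-0.60, SE 0.21) and Tnip1 (-0.37, SE 0.16) on the same log2 scale, with adjusted p of 7.20e-05, 6.06e-05, 0.0133 and 0.0440. Nfkb2, Bcl3 and Tnfaip3 did not pass the test, with log2 differences of -0.04 (95% interval -0.42 to 0.34), -0.44 (-1.10 to 0.22) and -0.30 (-0.85 to 0.24). Bcl3 passed without macrophage PBS replicate 3 (-0.81, adjusted p = 0.0368), and its value lay between -0.50 and -0.20 with any other library left out. The plot of the differences between the cell types shows these values. The cell types also differed in medium and in days of culture, which cannot be told apart from cell type. The call of Tnip1 was lost without TMM scaling (log2 difference -0.28, adjusted p = 0.180), without the filter on low counts (-0.35, 0.0996), and when neutrophil PBS replicate 2 or 3, neutrophil CGRP replicate 1, or macrophage PBS replicate 1 or 2 was left out (adjusted p between 0.0506 and 0.167), and that of Nfkbid without neutrophil PBS replicate 2 (-0.48, adjusted p = 0.0766). With thinned counts neither Tnip1 (-0.37, adjusted p = 0.0622) nor Nfkbid (-0.56, adjusted p = 0.0526) passed.

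**Figure D1:**
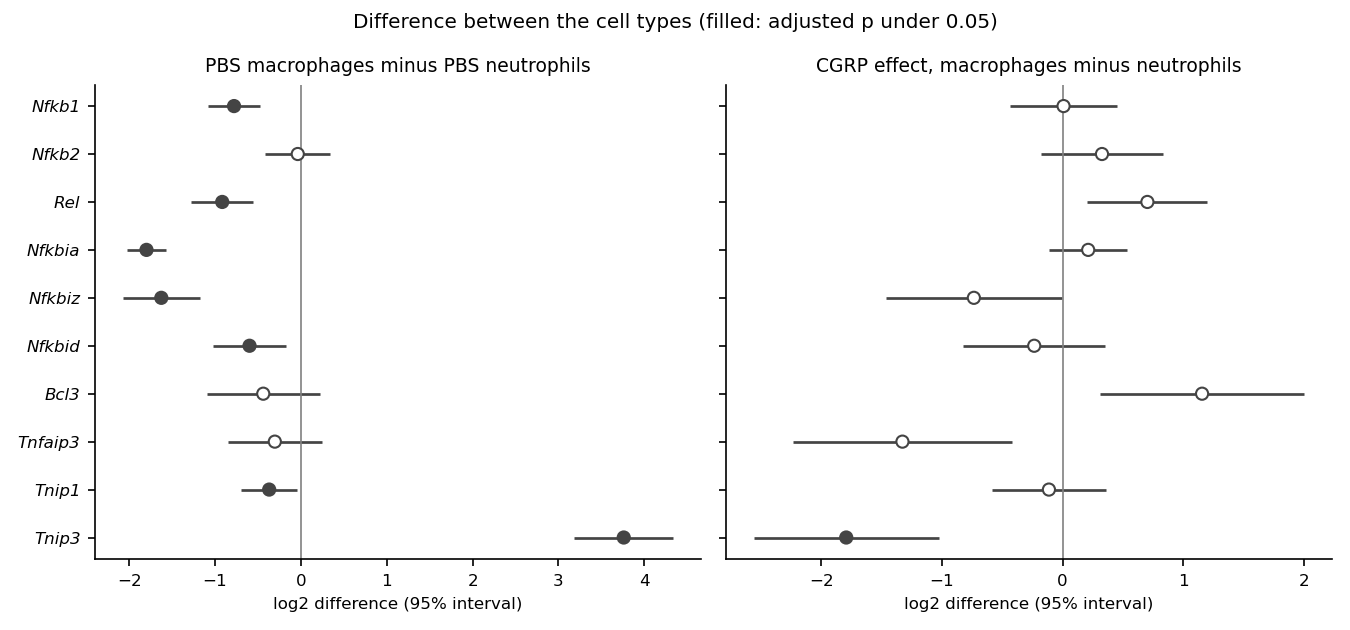
Log2 differences (points) with 95% intervals (lines) of the 10 genes, with the PBS macrophages against the PBS neutrophils on the left and the CGRP effect in macrophages minus that in neutrophils on the right; filled points have an adjusted p under 0.05. Tnip3 lies furthest from 0 in both panels, at 3.76 on the left and at -1.79 on the right. On the right its interval overlaps that of Tnfaip3 (-1.33), which did not pass.

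After 4 h of CGRP, Nfkb2, Rel and Bcl3 rose in macrophages and Tnip3 fell, while in neutrophils Nfkb2 and Tnip3 rose and no member fell. All 10 genes passed the filter on low counts in both cell types. In macrophages, 3 of the 10 genes rose and 1 fell, against 3.46% of the 9393 genes tested that rose and 3.97% that fell. In neutrophils, 2 of the 10 genes rose and 0 fell, against 1.51% and 1.02% of the 9819 genes tested. The 10 genes were chosen with earlier results of these data known, so that no independent excess can be read from these shares. The median log2 fold change of the 10 genes was 0.14 in neutrophils and 0.03 in macrophages, beside medians of 0.00080 and 0.0047 over all genes tested. In macrophages 5 of the 10 values were positive and 5 were negative, and Tnip3 alone passed among the negative ones. In 6 of the 10 genes the 3 CGRP macrophage libraries lay all on one side of the 3 PBS libraries, as did 24.2% of all genes tested, and in neutrophils this held for 4 of the 10 genes and 17.7% of all genes.

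**Figure D2:**
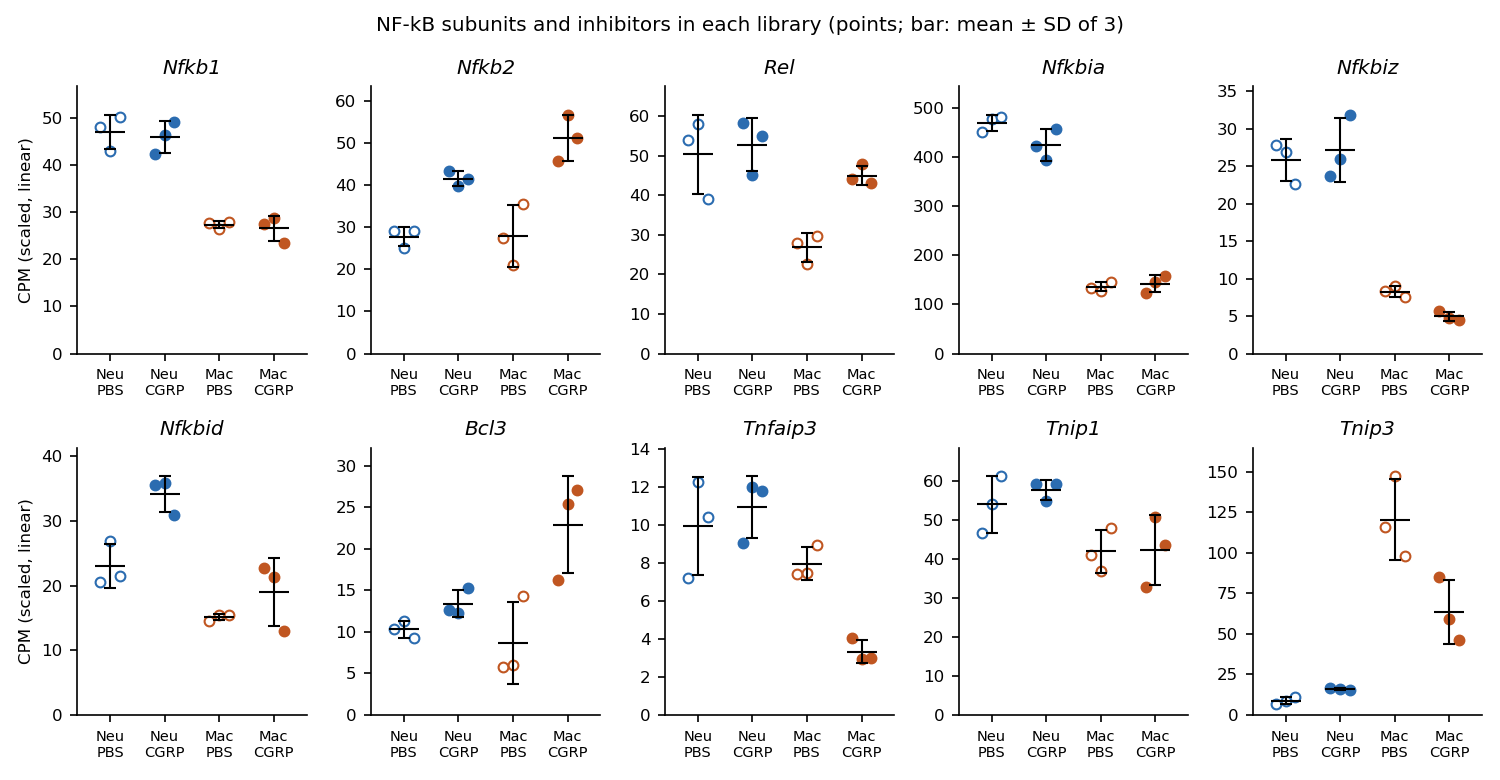
TMM-scaled CPM (linear axis from 0, a separate scale for each gene) of the 10 genes in each of the 12 libraries; open points are PBS, filled points CGRP, blue neutrophils (Neu) and orange macrophages (Mac), and the bars give the mean ± SD of 3 libraries. The CGRP points lie above the PBS points for Nfkb2 in both cell types, and for Tnip3 they lie above in neutrophils and below in macrophages.

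Among the subunit genes, Nfkb2 rose in both cell types. It encodes p100, the precursor of p52, and lies at chr19:46304320-46312385 on the plus strand (GRCm38). Its level was 27.5, 20.9 and 35.5 CPM in PBS macrophages and 45.6, 56.7 and 51.2 CPM in CGRP macrophages. Each CGRP library was above each PBS library, and the mean rise was 1.88-fold (log2 0.91, SE 0.20, adjusted p = 0.00906). In neutrophils it was at 29.1, 25.1 and 29.1 CPM with PBS and at 43.4, 39.7 and 41.5 CPM with CGRP. These groups did not overlap either, and the rise was 1.51-fold (log2 0.60, SE 0.14, adjusted p = 0.0258). The effect was 0.33 higher in macrophages on the log2 scale, a difference that did not pass the test (95% interval -0.18 to 0.83, adjusted p = 0.648).

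Rel, which encodes c-Rel, stood at 28.0, 22.7 and 29.7 CPM in PBS macrophages and at 44.0, 47.9 and 43.1 CPM in CGRP macrophages, again without overlap. The rise was 1.70-fold (log2 0.76, SE 0.18, adjusted p = 0.0136). The neutrophil libraries held 54.0, 58.1 and 39.1 CPM of Rel with PBS and 58.3, 45.2 and 55.0 CPM with CGRP, so that the groups overlapped and the log2 fold change was 0.07 (95% interval -0.24 to 0.38, adjusted p = 0.906). The CGRP effect on Rel was 0.70 higher in macrophages (SE 0.24), but with an adjusted p of 0.150 this difference did not pass the test over all genes. The remaining subunit gene, Nfkb1, encodes p105, the precursor of p50. It lay between 42.4 and 50.2 CPM in all neutrophil libraries and between 23.6 and 28.7 CPM in all macrophage libraries, with a log2 fold change of -0.03 in either cell type (95% intervals -0.30 to 0.25 in neutrophils and -0.42 to 0.36 in macrophages).

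Of the 4 IκB family genes, Bcl3 passed by limma-voom in macrophages and 0 passed in neutrophils, where Nfkbid passed by edgeR only among the tools run. Bcl3, whose product Bcl-3 binds p50 and p52 homodimers in the nucleus, had the largest fold change of the 10 genes in macrophages. Its level was 5.72, 5.97 and 14.3 CPM with PBS and 16.2, 25.4 and 27.1 CPM with CGRP, from 20, 20 and 40 counts and 52, 69 and 54 counts. The third PBS library stood well above the other 2 and just below the lowest CGRP library. Bcl3 rose 2.83-fold (log2 1.501, SE 0.33, adjusted p = 0.00914). In neutrophils Bcl3 was at 10.3, 11.3 and 9.33 CPM with PBS and at 12.6, 12.3 and 15.3 CPM with CGRP. These groups did not overlap, but the log2 fold change of 0.35 did not pass the test (SE 0.23, adjusted p = 0.569). The effect was 1.16 higher in macrophages on the log2 scale (SE 0.41, adjusted p = 0.175). It passed when macrophage PBS replicate 3 or macrophage CGRP replicate 1 was left out, and in no other fit that left out 1 library, with a value between 0.90 and 1.53 over all of these.

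Nfkbid, which encodes the nuclear protein IκBNS, was at 20.6, 26.9 and 21.5 CPM in PBS neutrophils and at 35.6, 35.9 and 30.98 CPM in CGRP neutrophils. Each CGRP library was above each PBS library, and the log2 fold change was 0.59 (SE 0.16), with an adjusted p of 0.0542 just outside the threshold by limma-voom and of 0.0497 by edgeR's quasi-likelihood test. In macrophages it was at 14.6, 15.5 and 15.4 CPM with PBS and at 22.8, 21.4 and 13.0 CPM with CGRP, where the third CGRP library was the lowest of the 6 and the log2 fold change was 0.34 (SE 0.24, adjusted p = 0.492). Nfkbiz had a negative fold change in macrophages, at 8.29, 8.96 and 7.52 CPM with PBS and at 5.62, 4.79 and 4.51 CPM with CGRP, from 9 to 30 counts a library. The groups did not overlap, and the log2 fold change of -0.69 did not pass the test (SE 0.32, adjusted p = 0.236). In neutrophils Nfkbiz lay between 22.6 and 31.9 CPM over the 6 libraries (log2 fold change 0.05, adjusted p = 0.945). Nfkbia was at 422, 393 and 457 CPM in CGRP neutrophils and at 124, 146 and 157 CPM in CGRP macrophages. Against the PBS values given above, its log2 fold change was -0.14 in neutrophils (95% interval -0.31 to 0.03) and 0.06 in macrophages (-0.23 to 0.36), and neither passed the test.

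Tnip3 was the 1 gene of the 10 for which the test of the CGRP effect in one cell type against the other passed. It lies at chr6:65525313-65634040 on the plus strand (GRCm38), and its product, also called ABIN-3, binds A20. In neutrophils its level was 6.87, 8.56 and 11.1 CPM with PBS and 16.5, 15.8 and 15.7 CPM with CGRP, from 22, 28 and 31 counts and 51, 54 and 36 counts. All CGRP libraries were above all PBS libraries, a rise of 1.86-fold (log2 0.90, SE 0.23, adjusted p = 0.0437). In macrophages it was at 116, 147 and 97.8 CPM with PBS and at 85.3, 59.3 and 46.1 CPM with CGRP. Here all CGRP libraries were below all PBS libraries, and the mean fell to 0.531-fold (log2 -0.91, SE 0.20, adjusted p = 0.0109). The effect in macrophages minus that in neutrophils was -1.79 (SE 0.37, 95% interval -2.56 to -1.03, adjusted p = 0.00690). Of the 10 genes this 1 passed the test of the difference, in the negative direction, against 1.15% of the 10694 genes tested with a negative and 1.21% with a positive difference. It passed under each of the 7 alternative settings and with each of the 12 libraries left out, with a value between -2.05 and -1.61 in the latter. Even with CGRP, each macrophage library held more Tnip3 than each neutrophil library.

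Tnfaip3, which encodes A20, was at 7.43, 7.47 and 8.96 CPM in PBS macrophages and at 4.06, 2.95 and 3.01 CPM in CGRP macrophages, from 26, 25 and 25 counts and 13, 8 and 6 counts. The groups did not overlap, and Tnfaip3 missed the threshold with a log2 value of -1.17 (SE 0.36, adjusted p = 0.0594). It passed by edgeR's quasi-likelihood test (-1.21, adjusted p = 0.0447), with quality weights (-1.22, 0.0218), with thinned counts (-1.48, 0.0415) and in the fit over all 12 libraries (-1.17, 0.0182), and did not by DESeq2 (-1.23, adjusted p = 0.118), in the other settings or with any library left out. In neutrophils Tnfaip3 was at 7.18, 12.2 and 10.4 CPM with PBS and at 9.07, 11.97 and 11.8 CPM with CGRP, or 0.16 on the log2 scale (95% interval -0.38 to 0.70). The difference between the cell types was -1.33 (SE 0.44, adjusted p = 0.133). Tnip1, which encodes the A20-binding protein ABIN-1, lay between 46.9 and 61.3 CPM in neutrophils and between 32.8 and 50.8 CPM in macrophages, with log2 fold changes of 0.12 (95% interval -0.15 to 0.38) and -0.01 (-0.41 to 0.40).

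**Figure D3:**
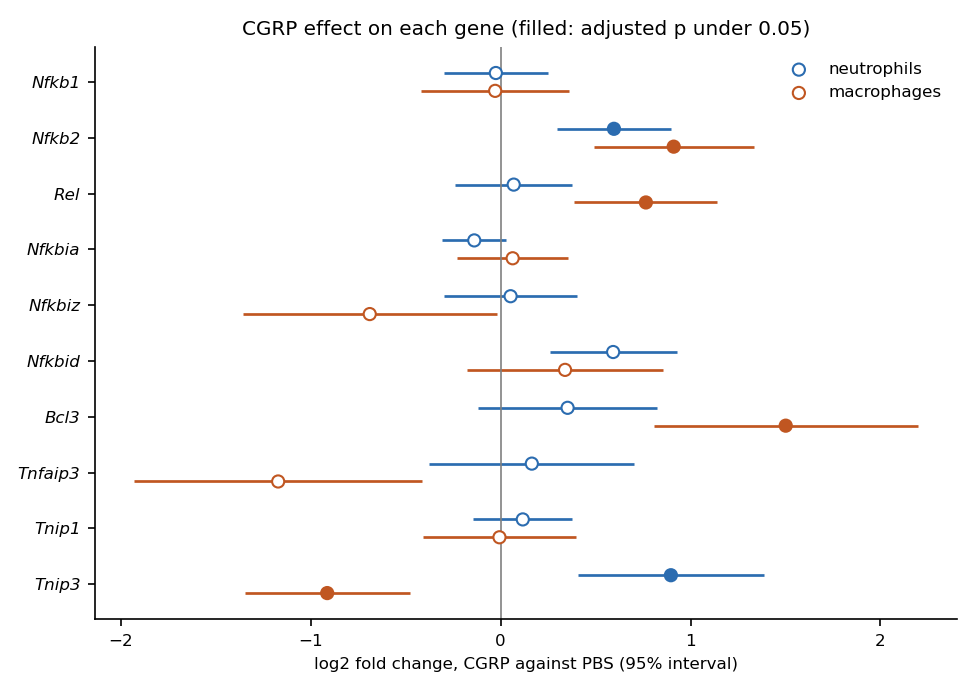
Log2 fold change of each gene with CGRP against PBS (points) and its 95% interval (lines) in neutrophils (blue) and macrophages (orange); filled points have an adjusted p under 0.05. Nfkb2 is filled and above 0 in both cell types, Tnip3 is filled on opposite sides of 0 (0.90 and -0.91), and Nfkb1 lies at -0.03 in both.

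The calls in neutrophils depended on the settings of the test. By DESeq2 (adjusted p = 0.0707 for Nfkb2 and 0.133 for Tnip3), without the filter on low counts (0.0529 and 0.0666), with counts thinned to the smallest library (0.132 and 0.0935) and in the fit over all 12 libraries (0.138 and 0.293), 0 of the 10 genes passed. By edgeR's quasi-likelihood test Nfkb2 and Nfkbid passed and Tnip3 did not (0.87, adjusted p = 0.0540), nor did Tnip3 with the replicate number as a block (0.88, adjusted p = 0.0542). In the 4 settings with no call, the fold changes were between 0.48 and 0.59 for Nfkb2 and between 0.87 and 0.91 for Tnip3 on the log2 scale. Nfkb2 passed in none of the 6 fits that each left out 1 neutrophil library (log2 fold change 0.51 to 0.64, adjusted p between 0.0503 and 0.188), and Tnip3 passed in 1 of them, without PBS replicate 3 (0.74 to 1.06, adjusted p between 0.0433 and 0.255). At an unadjusted p under 0.05, 3 of the 10 genes passed in neutrophils (Nfkb2, Tnip3 and Nfkbid) and 6 in macrophages (Nfkb2, Rel, Bcl3, Tnip3, Tnfaip3 and Nfkbiz). The share of all genes tested at this unadjusted threshold is not given here, so that no excess can be read from these numbers.

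In macrophages, Nfkb2, Rel, Bcl3 and Tnip3 passed under all 10 alternative settings, thinned counts included, but not with every library left out. Without CGRP replicate 2 none of the 4 passed, with log2 fold changes of 0.83, 0.72, 1.39 and -0.87 and adjusted p of 0.0676, 0.0826, 0.0532 and 0.0671. Without PBS replicate 1 Tnip3 alone passed (-0.93, adjusted p = 0.0484), with values of 0.92 for Nfkb2, 0.81 for Rel and 1.27 for Bcl3. Rel also did not pass without PBS replicate 2 (0.64, adjusted p = 0.0596), nor did Tnip3 without CGRP replicate 3 (-0.73, adjusted p = 0.0593). No fold change of these 4 genes changed sign.

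In the macrophage libraries some marker sums lay higher with CGRP than with PBS, although no marker gene of neutrophils or of macrophages passed the test. Gene by gene, 2 of 8 tested neutrophil markers and 3 of 10 monocyte and macrophage markers separated the groups, as did 24.2% of all genes tested. The 10 neutrophil markers summed to between 299.9 and 392 CPM with PBS and to between 413 and 441 CPM with CGRP, led by S100a8, which is also abundant in monocytes. The 10 monocyte and macrophage markers, led by C1qb, summed to between 11004 and 11578 CPM with PBS and to between 11677 and 13511 CPM with CGRP. Of the B cell markers reported here, Cd79b was between 31.2 and 32.6 CPM with PBS and between 37.1 and 39.8 CPM with CGRP (log2 fold change 0.26, SE 0.17, adjusted p = 0.427), and Cd79a, Ms4a1 and Pax5 were at 0. The T and NK cell sum, led by Cd4, with Cd3e, Cd3g and Ncr1 at 0, was between 1.79 and 3.94 CPM with PBS and between 5.89 and 8.02 CPM with CGRP, and the dendritic cell sum, led by Cd209a, was between 3.43 and 4.78 CPM and between 6.87 and 9.57 CPM. Cd4 itself passed the test (log2 fold change 1.68, adjusted p = 0.0394), and did not with any library but PBS replicate 3 left out (adjusted p between 0.0647 and 0.202), nor by DESeq2 (0.0817), without TMM (0.0541) or in the fit over all 12 libraries (0.134). Of the T and NK cell genes 6 of 7, and of the dendritic cell genes 3 of 5, had at most 3 counts in each macrophage library. The part of these marker differences in the results was not tested. In neutrophils none of these marker sums separated the CGRP from the PBS libraries.

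Little of the sequence of these genes is found in others. Of the 10 genes, 8 shared no 31-base sequence with another annotated gene, and the shares of the whole transcript were 0.135% for Rel and 0.194% for Nfkbia. At the 3′ end, where the reads lie, they were 0 for Rel and 0.638% for Nfkbia. Psd, on the strand opposite to Nfkb2, shares 299 exonic bases with it and had at most 3 counts in a library, and Gm16175, opposite to Bcl3, had 0 counts. AC114539.1, opposite to the 5′ end of Nfkb2, was not analysed here.

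Across the 12 libraries, after the log2 levels were centred within each cell type, the genes most like Nfkb2, the member with the smallest adjusted p for CGRP against PBS within a cell type, were Dusp5 (Pearson r = 0.968), Slc15a3 (0.961), Mgat4a (0.959), Uvrag (0.956) and Wbp1l (0.952). Dusp5, which encodes a phosphatase of ERK, rose in both cell types (log2 fold change 1.49 in neutrophils and 3.54 in macrophages), as did Slc15a3, a lysosomal histidine and peptide transporter (0.60 and 1.26), and Wbp1l (0.44 and 0.77). Uvrag rose in macrophages (0.94) but did not pass by limma-voom in neutrophils (0.44, adjusted p = 0.227). Mgat4a passed in neither cell type (0.36, adjusted p = 0.544, and 0.90, adjusted p = 0.143). Among the members, Nfkb2 had r = 0.885 with Bcl3, 0.770 with Rel and -0.73 with Nfkbiz. Tnfaip3 had r = 0.821 with Nfkbiz and 0.720 with Tnip3. The points share CGRP treatment and library, so that these coefficients restate in part the fold changes given above.

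The other genes of the pathway were taken from a list of 120, likewise chosen with earlier results of these data known. Of these, 99 were tested in neutrophils, where 7 rose and 4 fell (1.51% and 1.02% of all genes tested), and 90 in macrophages, where 8 rose and 10 fell (3.46% and 3.97% of all genes tested), with median log2 fold changes of 0.08 and 0.02. Of the 5 ligand genes tested in macrophages, 2 rose and 1 fell. Il1b, which encodes interleukin-1β, rose in macrophages from 4.33 ± 0.98 to 56.2 ± 5.86 CPM (mean ± SD, n = 3), or 3.71 on the log2 scale (adjusted p = 6.41e-07), and in neutrophils from 92.1 ± 7.15 to 190.4 ± 26.4 CPM (1.06, adjusted p = 3.22e-06). Tnfsf14, which encodes the ligand LIGHT, rose in macrophages by 2.57 on the log2 scale, and Tnf fell there by 2.24, from 24, 13 and 10 counts with PBS to 3, 3 and 1 counts with CGRP. Of the 7 ligand genes tested in neutrophils, Il18 also rose (1.37), and Ltb, which encodes lymphotoxin-β, fell by 0.48.

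Receptor genes moved in both directions. Of all genes tested, 3.46% rose and 3.97% fell in macrophages, and 1.51% rose and 1.02% fell in neutrophils. The counts of each list below stand beside these shares. Il1r2, which encodes a decoy receptor for interleukin-1, rose in neutrophils from 149.8 ± 19.2 to 474 ± 59.8 CPM (log2 fold change 1.67, adjusted p = 1.41e-09) and in macrophages from 2.64 ± 0.61 to 11.2 ± 2.30 CPM (2.09, adjusted p = 0.00204). In macrophages it was the 1 receptor gene of 15 tested that rose, and 4 fell, namely the Toll-like receptor genes Tlr1 (-1.51) and Tlr13 (-1.24), Cd40 (-1.40) and Tnfrsf11a, which encodes RANK (-0.78). In neutrophils 2 of 15 rose, the other being Tlr2 (0.57), and 1 fell, Nod1 (-0.46). Of 22 adaptor genes, 2 rose in neutrophils (Traf1, 1.36, and Tirap, 0.46). By DESeq2 18 of the 22 had an adjusted p there, Tirap but not Traf1 among them, and 0 passed. In macrophages 0 adaptor genes passed by limma-voom, edgeR or DESeq2, where 4 had an unadjusted p under 0.05. Of 10 kinase genes tested in each cell type, 1 fell in neutrophils (Map3k8, which encodes the MAP kinase kinase kinase Tpl2, -0.91, adjusted p = 0.00511), and in macrophages 0 passed by limma-voom, edgeR or DESeq2, or at an unadjusted p under 0.05 by limma-voom. Of the 4 other subunit and IκB genes, Relb, whose product pairs with p52, rose in macrophages (from 29.2 ± 6.75 to 45.9 ± 3.28 CPM, log2 fold change 0.68, adjusted p = 0.0355, but 0.0545 by DESeq2, 0.0872 without TMM and 0.0509 without the filter), and in neutrophils 0 passed by any of these tools, with 1 at an unadjusted p under 0.05. Of the other negative regulators, 1 of 14 fell in neutrophils (Pdlim2, -0.37), and in macrophages 0 of 13 passed by any of the tools, with 1 at an unadjusted p under 0.05. The numbers at an unadjusted p under 0.05 in these lists are given without the share of all genes tested, so that no excess can be read from them.

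**Figure D4:**
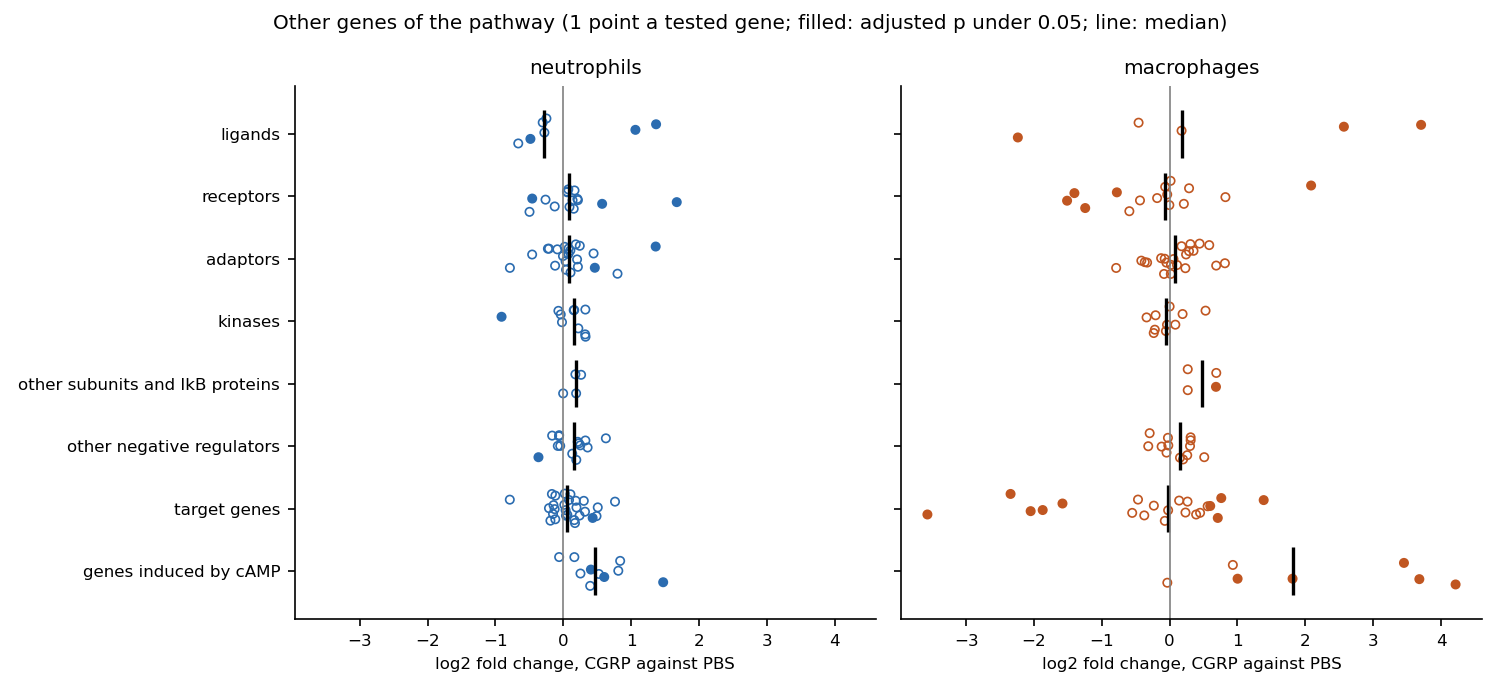
Log2 fold change with CGRP against PBS of each tested gene (points) of 7 pathway lists and of a list of genes induced by cAMP, in neutrophils (left) and macrophages (right); filled points have an adjusted p under 0.05 and the black line is the median of the list. Filled points in macrophages reach from -3.57 (Plau, a target gene) to 4.22 (Nr4a2, induced by cAMP), and the adaptors and kinases have no filled point there.

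Genes listed as NF-κB targets changed in macrophages in both directions, 4 up and 5 down of 21 tested, with a list median of -0.02. Of all genes tested, 3.46% rose and 3.97% fell there. The chemokine genes Ccl2, Ccl3 and Ccl4 fell by 2.05, 1.58 and 1.87 on the log2 scale. Plau, which encodes urokinase, fell by 3.57, from 20.5 ± 5.87 to 1.999 ± 1.76 CPM, and Bcl2l1, which encodes the survival protein Bcl-xL, fell by 2.34, from 80.4 ± 9.87 to 15.4 ± 2.08 CPM. Ier3, an immediate early gene, rose by 1.39, and the others that rose were the chemokine genes Ccl9 (0.76) and Ccl5 (0.60) and Cd86 (0.71), which encodes a costimulatory molecule for T cells. In neutrophils 1 of 27 target genes rose by limma-voom, again Ccl9 (0.43), and 0 fell, against 1.51% and 1.02% of all genes tested. By edgeR 2 of 27 rose, and by DESeq2 2 of the 24 with an adjusted p, and 0 fell by either. Nod1, Ccl9, Ccl5 and Cd86 were named after their values were seen. In a list of genes induced by cAMP, the second messenger of the CGRP receptor, 5 of 7 tested rose in macrophages (Crem 3.68, Nr4a1 1.00, Nr4a2 4.22, Fosl2 1.81 and Pde4b 3.45) and 3 of 10 in neutrophils (Nr4a2 1.47, Pde4b 0.60 and Dusp1 0.41). None of the 10 NF-κB genes reached a fold change as large as Crem, Nr4a2 or Pde4b in macrophages.

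Several of the calls on these lists were lost when a library was left out. In macrophages the calls of Tnf (without PBS replicate 1 or any CGRP replicate, adjusted p between 0.101 and 0.135), Cd40 (without PBS replicate 1 or 2 or CGRP replicate 2 or 3, between 0.0544 and 0.0705), Relb (without the same libraries, between 0.110 and 0.179), Tnfrsf11a (without PBS replicate 1 or CGRP replicate 2 or 3, between 0.0608 and 0.0973), Tnfsf14 (without PBS replicate 2, 0.0594), Ccl5 (any but PBS replicate 3, between 0.0523 and 0.251), Cd86 (without PBS replicate 1, 0.102) and Nr4a1 (without PBS replicate 1, 0.0669) were lost. In neutrophils those of Tirap (without any of the 6 libraries, up to 0.170), Nod1 (likewise, up to 0.157), Ltb (any but CGRP replicate 1, up to 0.155), Pdlim2 (any but CGRP replicate 1, up to 0.201), Dusp1 (any but CGRP replicate 3, up to 0.155), Traf1 (any but PBS replicate 3 and CGRP replicate 3, up to 0.168), Tlr2 (the same, up to 0.145), Il18 (PBS replicate 1 or 2, up to 0.136), Pde4b (PBS replicate 2, 0.0633) and Map3k8 (CGRP replicate 2, 0.0714) were lost. None of these fold changes changed sign. That of Tirap stayed between 0.44 and 0.48 and that of Nod1 between -0.50 and -0.40, whereas that of Tnfsf14 was 1.79 without PBS replicate 2. Other settings of the test also ended calls. By DESeq2 those of Tirap, Tlr2, Nod1, Pdlim2 and Dusp1 in neutrophils and of Relb and Ccl5 in macrophages were lost (adjusted p between 0.0545 and 0.112), and in the fit over all 12 libraries those of Tirap, Tlr2, Nod1, Pdlim2, Dusp1, Il18, Ltb and Ccl9 in neutrophils and of Tnfrsf11a and Ccl5 in macrophages (between 0.0717 and 0.265). With thinned counts those of Traf1, Tirap, Il18, Tlr2 and Nod1 in neutrophils and of Ccl5 in macrophages were lost (between 0.0518 and 0.161), without TMM those of Ltb, Pdlim2 and Nod1 and of Relb and Ccl5 (between 0.0872 and 0.189), and without the filter on low counts those of Tirap, Dusp1 and Nod1 and of Relb and Ccl5 (between 0.0509 and 0.0968). A minimum of 10 counts per library ended the call of Ccl5 too (0.0508). The named calls on Il1b, Il1r2, Ccl9, Nr4a2, Crem, Fosl2, Tlr1, Tlr13, Ccl2, Ccl3, Ccl4, Plau, Bcl2l1 and Ier3 passed with each library left out.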

How the data were processed

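RNA was extracted from neutrophils and macrophages and 20 ng with a RIN of at least 7 was used per library, with cDNA primed by oligo-dT and tagged by unique molecular identifiers (UMIs). The authors ran nfCore/RNAseq with UMIs, STAR on GRCm38 and featureCounts, and the deposited values are raw counts per gene, in one table for each cell type. The strand setting and the annotation release were not given in the sources used here. No pair of the 12 libraries was identical.

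Counts were analysed in R 4.3.3 with limma 3.58.1 and edgeR 4.0.16, since the study used limma-voom with TMM. Genes were kept by filterByExpr, and CGRP was compared with PBS in the 6 libraries of each cell type by limma-voom (two-sided, Benjamini-Hochberg adjustment over all genes tested, threshold 0.05). The difference between the cell types in the CGRP effect and in the PBS groups was tested in one limma-voom fit over the 12 libraries, after the tables were joined by gene identifier. CPM values use TMM factors over the 12 libraries, on which a level differs by at most 1.23% from that scaled within its cell type. A library held 2002559 to 3631989 counts, and the floor of 3 counts covers counting error only.

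The members and the gene lists were chosen with earlier results of these data known, and support no claim of independence. All 10 members were described, and of each list the genes with an adjusted p under 0.05, at most 6. Nod1, Ccl9, Ccl5, Cd86 and Tlr5 were named in addition, after their values were seen. The genes most like a member were the 5 with the highest Pearson r. Positions and exons come from GENCODE vM21 (GRCm38), and promoter sequences from RefSeq (GRCm38.p6). Shared sequence was measured as 31-base sequences of a transcript found in another gene. Tests were repeated with edgeR's quasi-likelihood method, DESeq2 1.42.0, DESeq2 size factors, no TMM, no filter, a minimum of 10 counts, quality weights, a replicate block, thinned counts, one fit over 12 libraries and each library left out. One marker gene and the sum that holds it are not reported here. The steps were tested on simulated data. Figures were drawn with matplotlib 3.10.9.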

Additional observations from a re-analysis of the deposited data

Results flagged for a closer look

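The CGRP effect in macrophages minus that in neutrophils passed the test of the difference, in the fit over the 12 libraries (limma-voom, adjusted over 10694 genes), for 1 of the 10 NF-κB genes. It also passed for 10 of 102 tested genes of the pathway lists (4 positive, with Tlr5 below included, and 6 negative) and for 4 of 10 genes induced by cAMP (all positive), against 1.21% of all genes with a positive and 1.15% with a negative difference. Most of these had been named because they passed within a cell type. Among the NF-κB genes the difference passed for Tnip3, with a log2 difference of -1.79 (SE 0.37, adjusted p = 0.00690). Its 3 CGRP libraries lay all above the 3 PBS libraries in neutrophils and all below them in macrophages. Of all genes tested, 17.7% in neutrophils and 24.2% in macrophages had the CGRP libraries all on one side.

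The difference was positive for the genes induced by cAMP Crem (2.88), Pde4b (2.86), Nr4a2 (2.75) and Fosl2 (1.66), for the ligand genes Tnfsf14 (2.83) and Il1b (2.66), and for the target gene Ier3 (1.32). It was negative for the target genes Plau (-3.39), Bcl2l1 (-2.35), Ccl2 (-2.10), Ccl4 (-2.02) and Ccl3 (-1.60) and for the receptor gene Tlr13 (-1.31). Each of these passed under all alternative settings that gave a value and with each of the 12 libraries left out. The other receptor gene that passed, Tlr5 (named after its values were seen), was positive, with 0 counts in each PBS macrophage library and 5, 9 and 4 counts with CGRP, against 6 to 20 counts in the neutrophil libraries, so that no fold is given. Tlr5 passed the filter on low counts in neutrophils but not in macrophages. Its difference rests on a group at 0 counts, and no conclusion is drawn from it.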

How the results depend on the processing

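In neutrophils, 2 of the 10 NF-κB genes passed, and the number was 0 by DESeq2, without the filter on low counts, with thinned counts and in one fit over all 12 libraries, and 0 to 1 with 1 library left out. By edgeR 2 passed as well, but with Nfkbid in place of Tnip3. In that 12-library fit 137 genes were called in neutrophils, against 248, and 138 to 234 with 1 library left out. In macrophages 4 passed, and 0 to 4 with 1 library left out. Over all genes, 1406 were called there with quality weights, against 698, and 347 to 765 with 1 library left out. The difference between the cell types was called for 1 member, and for 1 to 2 with 1 library left out (149 to 328 of all genes). The causes were not tested.

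The replicate numbers of the labels were tried as a block. With the block 1 member (Nfkb2) was called in neutrophils, and no other count of members changed. Same-numbered libraries deviated together little (r from -0.01 to 0.13 for neutrophils and from -0.17 to 0.26 for macrophages), and 3 of 6 libraries in each cell type correlated best with their own number, so that the numbers were not taken as pairs.

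The changes of sign all concern log2 fold changes or differences near 0 that passed in no setting. They were, for Nfkb1, 0.032 in neutrophils without TMM, and -0.11, -0.015 and -0.0076 in the difference between the cell types without TMM, without the filter and with at least 10 counts. For Tnip1 in macrophages they were 0.011 by edgeR, 0.0100 by DESeq2, 0.12 with quality weights, 0.0090 with the replicate block and 0.092 with thinned counts, and for Nfkb2 at rest 0.053 without TMM. With 1 library left out, the values ran in neutrophils from -0.10 to 0.042 for Nfkb1, -0.091 to 0.18 for Rel, -0.050 to 0.15 for Nfkbiz and -0.055 to 0.33 for Tnfaip3. In macrophages they ran from -0.081 to 0.043 for Nfkb1, -0.0029 to 0.16 for Nfkbia and -0.16 to 0.19 for Tnip1, in the difference between the cell types from -0.065 to 0.074 for Nfkb1 and -0.27 to 0.088 for Tnip1, and at rest from -0.20 to 0.16 for Nfkb2. No called member changed sign. Of the members, Tnfaip3 and Nfkbiz had the lowest counts in the CGRP macrophage libraries, with 6 to 13 and 9 to 18 counts per library.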
